A study of Mus musculus with 9 samples.

Results

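The transcription factors that switch a macrophage precursor towards the osteoclast, and those that hold it back, were followed in RAW 264.7 cells exposed to RANKL and to preparations of the bacterium Propionibacterium freudenreichii MJ2. The members are 9 genes taken by symbol out of 23282 gene rows: 7 activators (Nfatc1, Fos, Fosl2, Mitf, Prdm1, Ppargc1b and Spi1) and 2 repressors (Irf8 and Bcl6). RAW 264.7 is a mouse macrophage line of BALB/c origin, labelled here with the tissue Blood lymph and passage 30, and it forms osteoclasts when given RANKL, the cytokine that drives osteoclast formation. Messenger RNA was counted from its 3′ end in 9 libraries, 3 in each of 3 groups. Cells of the negative control (NC) received RANKL alone at 50 ng/mL, cells of the SF group received RANKL with 10 µg/mL of surface proteins extracted from strain MJ2, and cells of the MJ group received heat-killed MJ2 at 10000000 cells/mL, each for 4 days. The labels do not say for each MJ library whether RANKL was also given, and no group of untreated cells was analysed here, so the levels before treatment are not known. If it was not given, heat-killed MJ2 and the lack of RANKL cannot be told apart in the MJ group. The groups are replicate libraries of 1 line, and nothing in the labels says whether they came from separate cultures. The p-values below therefore measure the spread between libraries, which may be technical.

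Osteoclast formation is controlled at the level of transcription. RANKL signalling through AP-1 and NF-κB induces NFATc1, the master factor of the osteoclast, which then raises its own transcription and that of the genes for cell fusion and bone resorption. In precursors this programme is held down by repressors such as IRF8 and BCL6, and the RANKL-induced repressor Blimp-1, encoded by Prdm1, lowers the expression of those repressors.

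Against RANKL alone, surface proteins lowered Nfatc1, Fosl2, Ppargc1b, Prdm1 and Mitf and raised Irf8 and Bcl6, so that 7 of the 9 members were called, 5 lower and 2 higher. All 9 differences from RANKL alone were smaller in size with heat-killed MJ2 than with surface proteins. A call needed a limma p, adjusted over all genes tested, under 0.05 and a difference of 2-fold or more. Of all 10874 genes tested in that comparison, 10.2% were called higher and 7.32% lower. In the MJ group 2 members, Nfatc1 and Fosl2, were called lower than in NC and none higher, where 0.897% of 10814 genes were called lower and 3.37% higher. On the unadjusted limma p with the same limit on the fold, Irf8 would be counted as higher as well. Whether the MJ libraries had RANKL is not known, and this holds for every difference given below for heat-killed MJ2. Between the SF and MJ groups 6 members were called, 4 lower (Nfatc1, Prdm1, Fosl2 and Ppargc1b) and 2 higher (Irf8 and Bcl6) with surface proteins, where 4.97% of 10916 genes were called lower and 5.08% higher. The median log2 fold change of the 9 members was -1.23 for SF against NC, -0.37 for MJ against NC and -0.41 for SF against MJ, while the medians over all genes tested were -0.01, -0.00 and 0.03. The 3 comparisons share libraries, so the values of SF and MJ against NC are given side by side and not as independent results. Levels are given as adjusted reads, the deposited log2 value returned to the linear scale, with a median of 6195319 in all a library. All 9 members held at least 10 of them in all 9 libraries, and none was lost to the filter on low values. The plot of levels by library shows the 9 values behind each of these results.

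**Figure D1:**
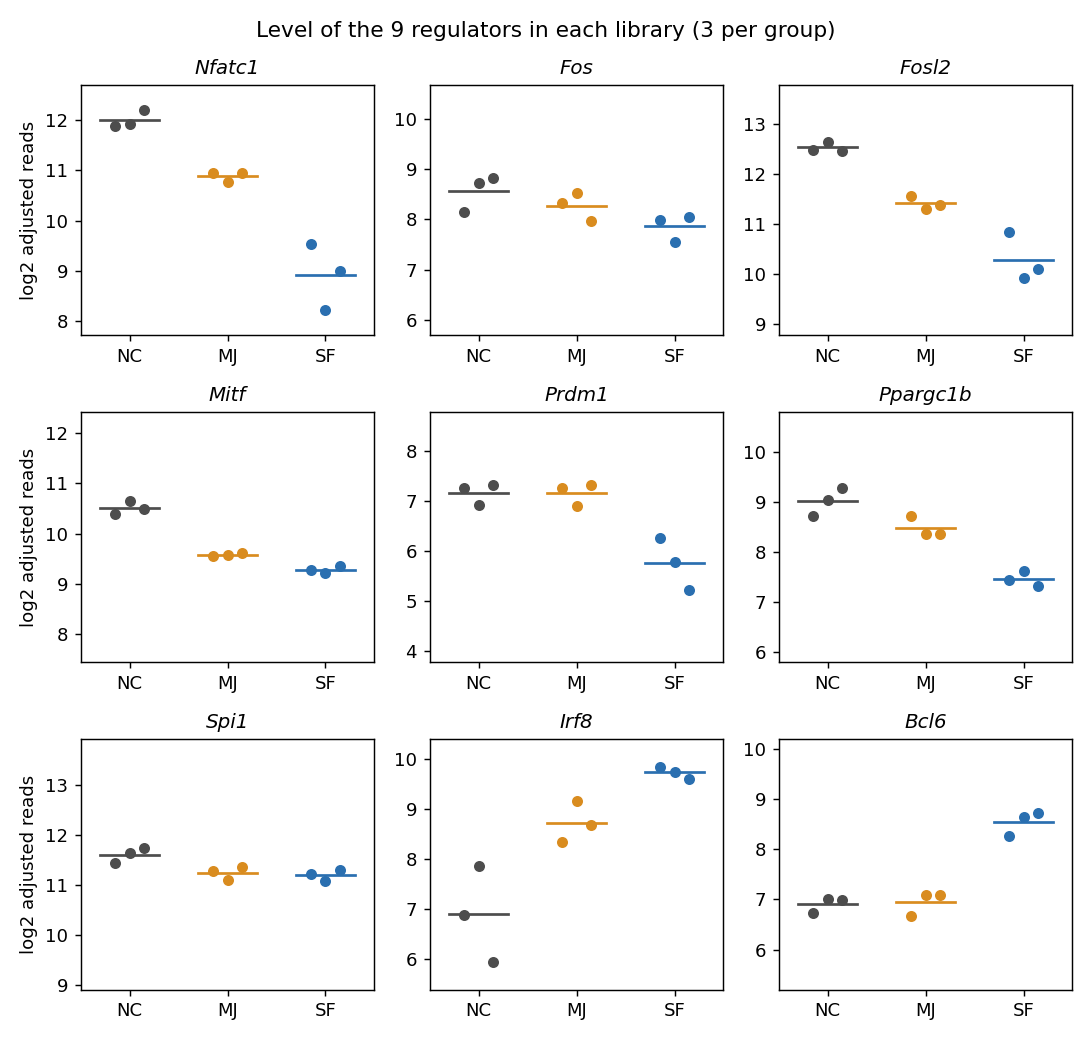
Log2 adjusted reads of the 9 regulators in each library, 1 panel a gene and all panels spanning the same range, with NC (RANKL alone), MJ (heat-killed MJ2) and SF (surface proteins with RANKL) along the horizontal axis. Points are libraries and lines are group means (n = 3). The SF libraries lie below the NC libraries for the 7 activators and above them for Irf8 and Bcl6, and for Prdm1 and Bcl6 the MJ libraries overlap those of NC.

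With surface proteins, Nfatc1 had the largest difference from RANKL alone among the 9 members. It held 3810, 3885 and 4698 adjusted reads in the NC libraries, 1972, 1754 and 1964 in the MJ libraries and 739, 297 and 511 in the SF libraries. The 3 groups did not overlap, with NC above MJ and MJ above SF. With surface proteins Nfatc1 fell by 3.09 on the log2 scale (standard error, SE, 0.34, limma adjusted p = 0.0021), so that the level in NC was 8.52-fold that in SF. Its rank from the bottom was 53 among the 10874 fold changes of that comparison. With heat-killed MJ2 it fell by 1.12 (SE 0.15, limma adjusted p = 0.013), a 2.17-fold difference. Surface proteins gave a lower level than heat-killed MJ2 by a log2 fold change of -1.97 (SE 0.33, limma adjusted p = 0.016). The MJ call was lost when any 1 of the MJ libraries was left out (limma adjusted p between 0.054 and 0.062) and in a fit of all 9 libraries together (adjusted p = 0.055), while the log2 fold change in those fits stayed between -1.15 and -1.06. Without MJ replicate 1 or MJ replicate 3 the call between SF and MJ was lost as well, at log2 fold changes of -1.94 and -1.95. In a bulk library, fewer cells that express a gene and less RNA per cell cannot be told apart, and this holds for every value here. The study named at least Nfatc1, Fosl2 and Mitf among genes it selected on the NC and SF libraries, so the direction of members it selected is not independent evidence.

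Of the AP-1 members, Fosl2 changed and Fos did not pass the test. Fosl2 encodes Fra-2, an AP-1 subunit of the Fos family. It held 5728, 6373 and 5661 adjusted reads in NC, 3035, 2520 and 2662 in MJ and 1841, 966 and 1096 in SF. Like Nfatc1 it fell in 2 steps with no overlap between any pair of groups. With surface proteins it fell by 2.24 on the log2 scale (SE 0.26, limma adjusted p = 0.0026), and with heat-killed MJ2 it fell by 1.11 (SE 0.14, adjusted p = 0.011). Between SF and MJ the log2 fold change was -1.13 (SE 0.26, limma adjusted p = 0.035). The MJ call was lost when any 1 of the MJ libraries was left out (limma adjusted p between 0.05 and 0.059) at log2 fold changes between -1.19 and -1.06. It was also lost with a replicate block (limma adjusted p = 0.055) at the same log2 fold change as in the main fit. The call between SF and MJ was lost without MJ replicate 1, 2 or 3 or SF replicate 2 or 3, with the log2 fold change lying between -1.19 and -0.94.

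Fos encodes c-Fos, the AP-1 subunit without which precursors stay macrophages. It held 284, 425 and 453 adjusted reads in NC, 320, 369 and 248 in MJ and 253, 186 and 265 in SF. The SF libraries lay just below those of NC, with a gap of 0.10 on the log2 scale, and the MJ libraries overlapped both groups. The log2 fold change was -0.71 with surface proteins (95% interval -1.29 to -0.12, adjusted p = 0.072 from limma), -0.30 with heat-killed MJ2 (interval -0.89 to 0.29, adjusted p = 0.52) and -0.41 between SF and MJ (interval -0.94 to 0.12, adjusted p = 0.23). None of the 3 passed the test, and the intervals leave room for more than a 2-fold drop in the first of them. For SF against NC the limma adjusted p was 0.013 with the trend and robust options of eBayes, at the same log2 fold change. Without NC replicate 1 it was 0.039 at a log2 fold change of -0.92. Neither reached the 2-fold limit.

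Mitf encodes the microphthalmia-associated factor, a partner of PU.1 and NFATc1 at the genes of bone resorption. It held 1332, 1595 and 1441 adjusted reads in NC, 748, 760 and 784 in MJ and 613, 591 and 651 in SF. The groups did not overlap, and the MJ libraries lay much closer to SF than to NC. Mitf fell by 1.23 on the log2 scale with surface proteins (SE 0.14, limma adjusted p = 0.0024). With heat-killed MJ2 the log2 fold change was -0.93 (SE 0.13, limma adjusted p = 0.017), which passed the limit on p but not that on the fold change. The limit on p was no longer passed without any 1 of the MJ libraries (limma adjusted p between 0.063 and 0.082). The same held without NC replicate 3 (0.053) and with a replicate block (0.063), and the log2 fold change in these fits lay between -0.945 and -0.912. Between SF and MJ it was -0.31 (interval -0.60 to -0.01, adjusted p = 0.13), and these neighbours did not differ by the test.

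Prdm1 encodes Blimp-1, the repressor of repressors. It held 151, 121 and 159 adjusted reads in NC, 152, 119 and 159 in MJ and 75.3, 53.7 and 36.4 in SF. NC and MJ overlapped, and every SF library was below both. With surface proteins Prdm1 fell by 1.42 on the log2 scale (SE 0.28, limma adjusted p = 0.014). Against heat-killed MJ2 the log2 fold change was -1.41 (SE 0.28, limma adjusted p = 0.025), a call that was lost without MJ replicate 1, MJ replicate 3 or SF replicate 2 (log2 fold changes of -1.36, -1.33 and -1.42). The log2 fold change of MJ against NC was -0.00, with an interval from -0.45 to 0.44 that does not reach a 2-fold change in either direction (adjusted p = 0.99).

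Ppargc1b encodes PGC-1β, a coactivator that drives the growth of mitochondria in the differentiating osteoclast. It held 422, 527 and 619 adjusted reads in NC, 418, 326 and 328 in MJ and 173, 196 and 158 in SF. The SF libraries stood well below the rest, while the gap between NC and MJ was 0.01 on the log2 scale. Ppargc1b fell by 1.56 with surface proteins (SE 0.19, limma adjusted p = 0.003), and the log2 fold change with heat-killed MJ2 was -0.54 (interval -1.02 to -0.06, adjusted p = 0.17), which did not pass. Between SF and MJ it was -1.02 (SE 0.17, limma adjusted p = 0.015), a call lost without MJ replicate 1 or 3 or SF replicate 3 (log2 fold changes of -0.90, -1.07 and -0.94).

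Spi1 encodes PU.1, the factor that macrophages and osteoclasts share. It held 2775, 3175 and 3429 adjusted reads in NC, 2462, 2196 and 2602 in MJ and 2368, 2147 and 2522 in SF. The treated libraries lay below those of NC by a small gap and overlapped each other. The log2 fold change was -0.41 with surface proteins (interval -0.78 to -0.05, adjusted p = 0.087 from limma), -0.37 with heat-killed MJ2 (interval -0.73 to -0.01, adjusted p = 0.21) and -0.04 between SF and MJ (interval -0.39 to 0.30, adjusted p = 0.85). No call was made, and the 3 intervals exclude a 2-fold change.

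On the repressor side, Irf8 encodes interferon regulatory factor 8, which restrains NFATc1 in precursors and is lowered as precursors differentiate. It held 117, 232 and 60.3 adjusted reads in NC, 323, 574 and 407 in MJ and 920, 859 and 771 in SF. The groups did not overlap, with SF highest, and the NC libraries were the most widely spread of any member in any group, with an SD of 0.96 on the log2 scale. With surface proteins Irf8 rose by 2.84 (SE 0.46, limma adjusted p = 0.0076), a 7.13-fold difference. With heat-killed MJ2 the log2 fold change was 1.83 (SE 0.50, limma adjusted p = 0.091) and did not pass. Without NC replicate 2, the NC library where Irf8 was highest, it was 2.32 and passed (adjusted p = 0.044), and it also passed when all 9 libraries shared 1 fit (adjusted p = 0.04). Between SF and MJ the log2 fold change was 1.00 (SE 0.23, limma adjusted p = 0.034). That value sits at the limit of 2-fold, and the call was lost under 12 of 17 alternatives, among them the loss of MJ replicate 1 or 3 or of any SF library, with log2 fold changes from 0.81 to 1.07 in those fits. The last 500 bases of Irf8 overlap another annotated gene, Gm20388, on the same strand, and how reads in that stretch were assigned is not given in the sources used here.

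Bcl6 encodes a zinc finger repressor that in osteoclast precursors occupies the promoters of Nfatc1 and its targets. It held 106, 128 and 126 adjusted reads in NC, 100, 135 and 134 in MJ and 307, 399 and 426 in SF. NC and MJ overlapped and all SF libraries lay above both, where those of Prdm1 lay below. Bcl6 rose by 1.64 on the log2 scale with surface proteins (SE 0.18, limma adjusted p = 0.0022), a 3.11-fold difference. Against heat-killed MJ2 it rose by 1.61 (SE 0.20, limma adjusted p = 0.0091), a call that every fit with 1 library left out kept. For MJ against NC the log2 fold change was 0.03, with an interval from -0.39 to 0.46 (adjusted p = 0.94), which excludes a 2-fold change.

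Across the 9 members, the libraries of SF and NC did not overlap for 9 genes, those of MJ and NC for 6 and those of SF and MJ for 7. Over all genes tested the share without overlap was 48.4%, 30.2% and 42.3%. With 3 libraries against 3, the exact two-sided permutation test of a single gene cannot go below p = 0.1, and it gave 0.1 for each of those non-overlapping pairs. The difference plot sets the estimates and their intervals side by side.

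**Figure D2:**
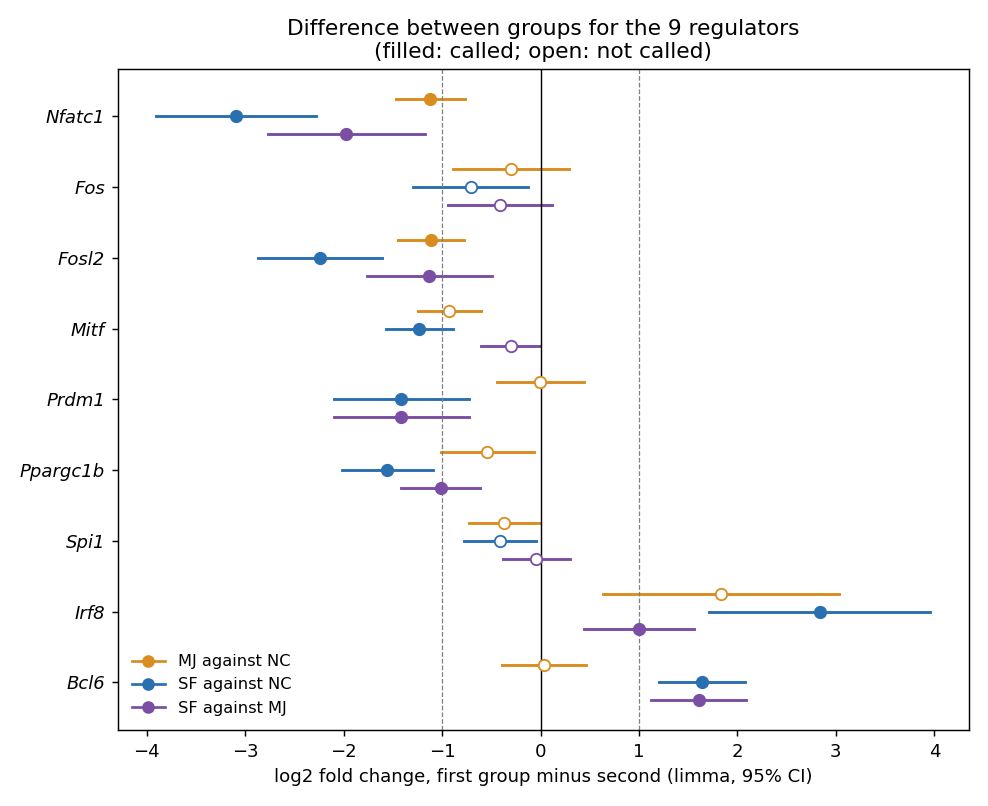
Log2 fold change of each regulator from limma in the 3 comparisons (colours), first group minus second, with 95% confidence intervals as bars and n = 3 libraries a group. Filled points were called, open points were not, and dashed lines mark a 2-fold change. Prdm1 and Bcl6 are near 0 for MJ against NC and far from 0 in the other comparisons, and Spi1 stays inside the dashed lines throughout.

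The promoters of the repressors are shown because Irf8 and Bcl6 were the members that rose, and that of Prdm1 because its product is known to repress both. RefSeq promoter entries on GRCm38.p6 were found for 6 of the 9 members (10 start sites in all), and the 250 bases before each start were searched on both strands for 9 short motifs. No entry was found for Nfatc1, Ppargc1b and Spi1. The letters TTCNNNGAA, the form bound by STAT factors and also the core that BCL6 binds, occur in 7.02% of the 32851 promoter windows of the table. They occur in the window before the first start of Irf8 (chr8:120736108-120736357, plus strand), with 1 match at -171 and 1 at -153 from the start, and before the first start of Bcl6 (chr16:23988853-23989102, minus strand), with 1 match at -118. The matches are in capitals in the first pair of sequences. A further Bcl6 start inside the gene has 3 matches, though the bases after that start matched no annotated transcript, and a further start of Irf8 has 0. No window of Fos, Fosl2, Mitf or Prdm1 has one. The Prdm1 window (chr10:44458749-44458998, minus strand) precedes a start inside the annotated gene, not its outermost end. In it the capitals mark the AP-1 letters TGANTCA at -48, which occur in 6.75% of all windows and in no other window of these members. The Blimp-1 letters AGNGAAAG (7.3% of all windows) occur in none of the 10 windows. Of the other motifs searched, the IRF motif, GAAA repeated after NN (2.98% of all windows), occurs before Fosl2 and the CRE letters TGACGTCA (1.55%) occur before 1 of 3 starts of Mitf. The PU.1 letters GAGGAA (23.3%) occur before Prdm1 and the first start of Bcl6, the E-box CACGTG (6.02%) before the first start of Bcl6, the NFAT letters GGAAAA (20.4%) before its further start, and the NF-κB motif, GGGA followed by N and TTTCC (0.356%), in none. The matches in capitals overlap no match of another motif. Fos has no match at all. These are matches of letters, and no binding was measured.
Irf8 promoter: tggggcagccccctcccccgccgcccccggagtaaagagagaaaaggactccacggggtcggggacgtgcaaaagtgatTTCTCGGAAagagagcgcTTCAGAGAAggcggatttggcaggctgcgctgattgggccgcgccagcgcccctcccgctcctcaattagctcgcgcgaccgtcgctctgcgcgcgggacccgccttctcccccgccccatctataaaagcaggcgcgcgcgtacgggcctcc
Bcl6 promoter: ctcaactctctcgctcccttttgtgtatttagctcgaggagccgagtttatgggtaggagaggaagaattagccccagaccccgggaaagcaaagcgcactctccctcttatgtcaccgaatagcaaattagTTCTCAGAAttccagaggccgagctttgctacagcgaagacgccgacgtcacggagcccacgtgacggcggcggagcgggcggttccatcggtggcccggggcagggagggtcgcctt
Prdm1 promoter of the internal start: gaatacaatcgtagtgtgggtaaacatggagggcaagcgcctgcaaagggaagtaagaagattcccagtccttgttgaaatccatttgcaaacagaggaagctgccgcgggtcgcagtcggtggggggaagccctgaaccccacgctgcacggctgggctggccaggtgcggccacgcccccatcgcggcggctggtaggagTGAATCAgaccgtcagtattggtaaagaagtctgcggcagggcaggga

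The rank of the members within a library changed with the treatment. Each read comes from the 3′ end of a transcript, so levels are compared as adjusted reads with no correction for length. In NC, Nfatc1 stood above 98.3% to 98.6% of the 11193 genes that reached 10 adjusted reads in 3 or more libraries, and in SF above 64.7% to 85.4% of them. Irf8 stood above 26.1% to 59.3% of those genes in NC, 68.2% to 81.4% in MJ and 86.3% to 88.6% in SF. Ordered by mean log2 level, NC ran from Fosl2 (12.53) through Nfatc1 (12.01), Spi1 (11.61), Mitf (10.51), Ppargc1b (9.02) and Fos (8.57) to Prdm1 (7.17), Bcl6 (6.91) and Irf8 (6.90). The last 3 of these overlapped in their libraries, as did Ppargc1b and Fos. In MJ the order was Fosl2 (11.42), Spi1 (11.24), Nfatc1 (10.89), Mitf (9.58), Irf8 (8.73), Ppargc1b (8.48), Fos (8.27), Prdm1 (7.16) and Bcl6 (6.95). There Fosl2 overlapped with Spi1, Irf8, Ppargc1b and Fos overlapped with each other, and Prdm1 overlapped with Bcl6. In SF the order was Spi1 (11.19), Fosl2 (10.29), Irf8 (9.73), Mitf (9.27), Nfatc1 (8.92), Bcl6 (8.55), Fos (7.86), Ppargc1b (7.46) and Prdm1 (5.75). Mitf and Nfatc1 overlapped there, as did Nfatc1 and Bcl6, and Fos and Ppargc1b.

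Within single libraries, the difference between Nfatc1 and Irf8 changed sign with surface proteins. Nfatc1 exceeded Irf8 by 5.11 ± 1.10 on the log2 scale in NC and by 2.16 ± 0.51 in MJ, while in SF the difference was -0.81 ± 0.64 (SD, n = 3 each), with Irf8 the higher in all 3 SF libraries. Prdm1 and Bcl6 were at about the same level in NC (0.25 ± 0.31) and MJ (0.22 ± 0.39), and in SF the difference was -2.80 ± 0.75. Nfatc1 minus Spi1, an activator set against the lineage factor, went from 0.40 ± 0.10 in NC to -0.35 ± 0.05 in MJ and -2.28 ± 0.59 in SF. Fosl2 exceeded Fos by 3.96 ± 0.35, 3.14 ± 0.34 and 2.43 ± 0.41 in NC, MJ and SF. These differences combine the values above and were not tested again. How reads in the overlap of Irf8 with Gm20388 were assigned is not known, so the sign of a difference from Irf8 may depend on it.

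**Figure D3:**
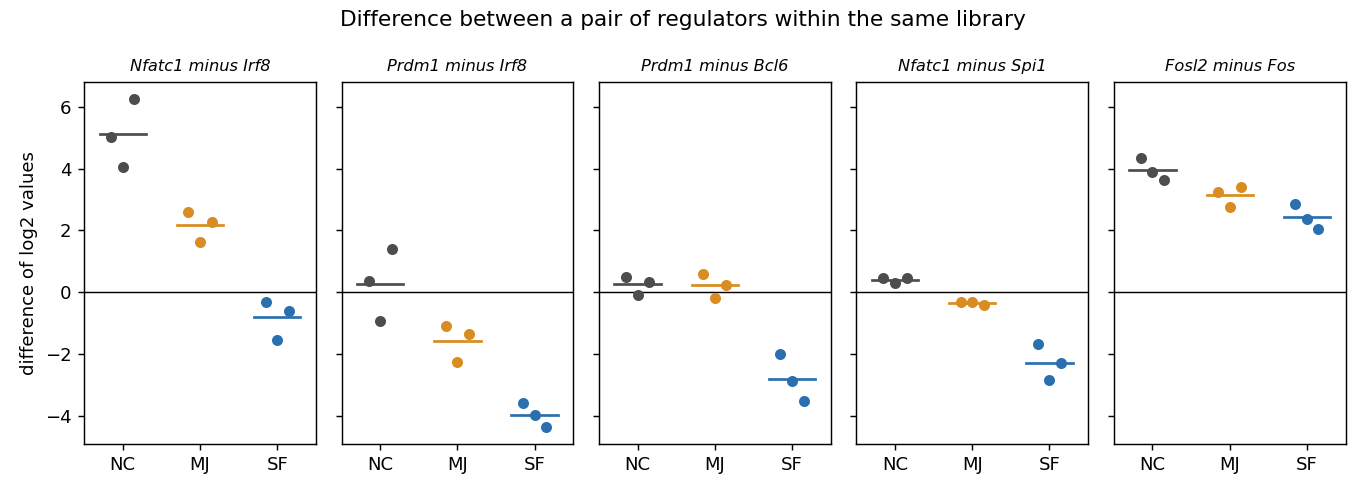
Difference between the log2 values of 2 regulators in the same library, for 5 pairs and the groups NC, MJ and SF. Points are libraries, lines are group means (n = 3) and the black line marks equal adjusted reads of the 2 genes. Nfatc1 lies above Irf8 in the NC and MJ libraries and below it in all 3 SF libraries.

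The genes around these regulators were read from lists of known targets, partners and other regulators. Of 18 tested target genes of NFATc1, 10 fell and 0 rose with surface proteins, and the list had its median at -1.28 (log2). Over all genes tested, 7.32% were called lower and 10.2% higher. Ocstamp (-4.12) and Dcstamp (-2.33), which encode proteins of cell fusion, Acp5 (-2.66), the tartrate-resistant acid phosphatase, and Atp6v0d2 (-2.10), a proton pump subunit, had the largest changes in the list, all with a limma adjusted p of 0.012 or less. Ocstamp went from 322, 240 and 564 adjusted reads in NC to 198, 90.9 and 143 in MJ and 22.5, 16.2 and 19.9 in SF. With heat-killed MJ2 2 of the 18 fell, Acp5 (-1.11) and Atp6v0d2 (-1.10), and between SF and MJ 8 were lower with surface proteins. The share of all genes called lower was 0.897% for MJ against NC and 4.97% for SF against MJ. Leaving out 1 library gave between 7 and 11 that fell for SF against NC, between 0 and 2 for MJ against NC and between 4 and 8 for SF against MJ. Without the 3 libraries with the fewest rows at 0 these counts were 4, 0 and 0. Acp5 and some other members of the list are among the genes the study selected on the NC and SF libraries.

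Of the genes listed as other repressors of osteoclast differentiation, some rose against RANKL alone and the rest were not called. Their role as repressors was not tested here. With surface proteins 9 of 16 tested rose and 0 fell, where 10.2% of all genes were called higher. With heat-killed MJ2 6 of 17 rose and 0 fell, where 3.37% of all genes were called higher. Some of the listed repressors, Id1 among them, passed the filter on low values only through the treated group, where a high value was then needed. Without them 7 of 14 rose with surface proteins and 4 of 14 with heat-killed MJ2. With 1 library left out, between 7 and 10 rose with surface proteins and between 1 and 6 with heat-killed MJ2. Irf7, an interferon regulatory factor, rose by 4.19 with surface proteins and by 3.62 with heat-killed MJ2, and Socs3, an inhibitor of cytokine signalling, by 4.00 and 3.73. Id1, an inhibitor of DNA binding, held 0, 2.27 and 0 adjusted reads in NC, 93, 49.4 and 120 in MJ and 20.5, 14.3 and 15.5 in SF. It is counted among the 9 and the 6, and no fold against NC is given for it because every NC library was under 3 reads. It was lower in SF than in MJ by a log2 fold change of -2.24 (adjusted p = 0.014 from limma). Between SF and MJ 3 of 17 were higher and 1 was lower (Id1), with between 1 and 3 higher and between 0 and 1 lower when 1 library was left out, and 0 of either without the 3 libraries with the fewest rows at 0. Of all genes in that comparison 5.08% were called higher and 4.97% lower, and the single lower call is near that share.

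Among other transcription regulators of the osteoclast, 3 of 21 tested rose and 2 fell with surface proteins, and 2 of 20 rose with heat-killed MJ2. With surface proteins these shares are near those over all genes, 10.2% higher and 7.32% lower. With heat-killed MJ2 the share of all genes called higher was 3.37%. With 1 library left out, between 2 and 4 rose and between 0 and 3 fell with surface proteins, and at most 1 rose with heat-killed MJ2. In SF against MJ 1 of 21 was higher, Zeb1, near the share of 5.08% over all genes. Jun, the AP-1 partner of c-Fos, rose by 1.64 with surface proteins and Fosl1, which encodes the AP-1 subunit Fra-1, by 1.46. With heat-killed MJ2 their log2 fold changes were 1.71 (limma adjusted p = 0.023) and 1.29 (limma adjusted p = 0.031), and at least 1 of these 2 calls was lost in every fit with 1 library left out. Tfeb, a lysosomal regulator related to Mitf, fell by 1.62 with surface proteins (adjusted p = 0.016 from limma), and its log2 fold change with heat-killed MJ2 was -1.17 (adjusted p = 0.1). Zeb1 held 16.7, 38.6 and 40 adjusted reads in SF, 0, 0.0718 and 4.93 in NC and at most 0.0217 in MJ. It passed the filter only through the SF libraries, and without it 2 of 20 rose with surface proteins and 0 of 20 were called between SF and MJ, where 4 of the 21 had an unadjusted limma p under 0.05. Of 17 genes that carry the RANK signal to NFATc1, 1 fell and 0 rose with surface proteins. That share is near the one over all genes. The gene was Tnfrsf11a, the receptor RANK, which fell by 1.29 (SE 0.14, limma adjusted p = 0.0021), and limma called 0 genes of the pathway in the other 2 comparisons, with 3 at an unadjusted p under 0.05 in each.

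Of the genes linked to PU.1 and IRF8 in macrophages, 9 of 16 rose and 2 fell with surface proteins, and 6 of 16 rose with heat-killed MJ2 (between 1 and 6 with 1 library left out). Over all genes, 10.2% were called higher and 7.32% lower for SF against NC, and 3.37% higher for MJ against NC. Fcgr1, the high affinity IgG receptor, held 33.7, 3.35 and 2.95 adjusted reads in NC, 111, 208 and 113 in MJ and 828, 986 and 828 in SF. Itgam, an integrin of myeloid cells, rose by 3.01 with surface proteins and 2.26 with heat-killed MJ2. Cybb, the NADPH oxidase subunit, rose by 2.60 and 2.82, while Adgre1, which encodes F4/80, rose by 3.81 with surface proteins and had a log2 fold change of 1.73 with heat-killed MJ2 (adjusted p = 0.11 from limma). Csf1r and Cx3cr1 were the 2 that fell with surface proteins. Between SF and MJ 3 of 16 were higher and 1 was lower, with between 2 and 4 higher and between 0 and 2 lower when 1 library was left out, and 0 of either without the 3 libraries with the fewest rows at 0. Of all genes in that comparison 5.08% were called higher and 4.97% lower. Of 15 mitochondrial genes linked to PGC-1β, 1 fell with surface proteins, Idh3a, a subunit of isocitrate dehydrogenase (limma adjusted p = 0.011), and the median of the list was -0.49. A single call is near the share of 7.32% over all genes, and in at least 1 fit with 1 library left out 0 were called. Idh3a held 937, 820 and 1138 adjusted reads in NC and 517, 406 and 517 in SF, just past the 2-fold limit. In the same list Tfrc, the transferrin receptor, had log2 fold changes of -0.86 for SF against NC (under the fold limit) and -1.04 for SF against MJ, the 1 call in that comparison, where leaving out 1 library gave between 0 and 2 calls. For MJ against NC limma called 0 of the mitochondrial list. An unadjusted p under 0.05 was found for 9 of its 15 genes for SF against NC, 0 for MJ against NC and 5 for SF against MJ. Of 12 reference genes, limma called 0 in the 3 comparisons, at medians of -0.01, 0.05 and 0.10, and 6, 5 and 4 had an unadjusted p under 0.05.

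**Figure D4:**
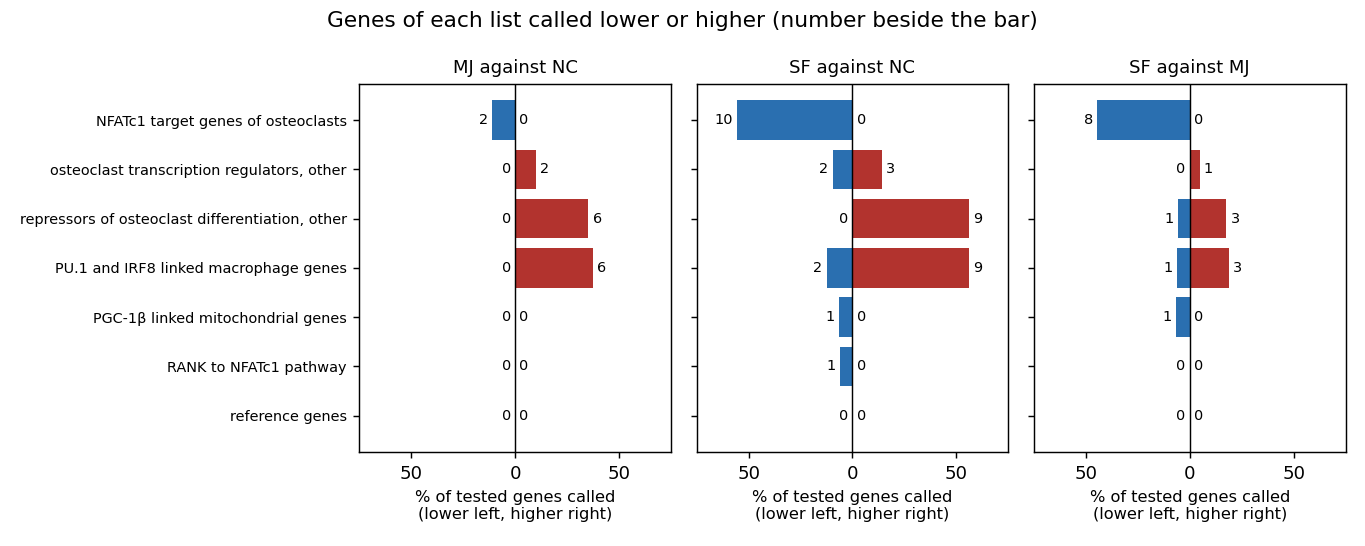
Share of the tested genes of each list called lower (left, blue) or higher (right, red) in the 3 comparisons, in percent, with the number called beside each bar. The NFATc1 targets are called lower only, 10 of 18 for SF against NC, and the other repressors are called higher in 9 of 16 there, or 7 of 14 without the genes that passed the filter only through the SF libraries. Of all genes tested in that comparison, 7.32% were called lower and 10.2% higher.

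The bar plot of the lists gives these counts as shares of the genes tested. By likeness of profile over the 9 libraries, after each gene was centred on its own mean, the genes nearest to Nfatc1 among 11192 were Acp5, Cldn11, Mst1r, Cst7 and Tesk1, at mean absolute differences of 0.20, 0.22, 0.25, 0.27 and 0.28 on the log2 scale. Fosl2 was the nearest member at rank 29, followed by Ppargc1b at 209, Prdm1 at 306 and Mitf at 807. Nearest to Irf8 were Fgfbp3, Oas1a, Pck2, Slc3a2 and Sgk1, at 0.25, 0.27, 0.28, 0.28 and 0.28, and Bcl6 was at rank 665. These are descriptions of 9 libraries in 3 groups, and libraries of 1 group are not separate conditions.

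The adjusted reads of a library summed to between 5930926 and 6503682. These are sums of scaled values, and the sequencing depth of each library is not known. The line carried its macrophage markers in every group (Cd68 at 3765 to 4955 adjusted reads), with 4 of 7 tested markers higher and Csf1r lower in SF than in NC, and 3 of 7 higher in MJ than in NC (between 1 and 3 with 1 library left out). Of all genes 10.2% were called higher and 7.32% lower for SF against NC, and 3.37% higher for MJ against NC. The markers called are also in the list linked to PU.1 and IRF8 and were already counted there. Mrc1 stayed under 10 adjusted reads in every library. Of 16 markers of other cell types, 15 were listed and 5 were at 0 in all libraries, and their sum lay between 29.4 and 84.7 adjusted reads in NC, 42.2 and 89.1 in MJ and 62.7 and 110 in SF. Limma tested 2 of these markers and called 0. For SF against NC the log2 fold change was 1.96 for Runx2 (limma adjusted p = 0.092) and -0.01 for Col1a1. Dcn held 0, 0.057 and 0 adjusted reads in NC and 13.7, 23.2 and 9.81 in SF, while Pecam1 held 16.3, 7.43 and 0 in NC and at most 0.0454 in SF. The part of these markers in the results was not tested. NC replicate 2, MJ replicate 1 and SF replicate 3 listed 7779 rows at 0, against 10075 to 10875 in the others. Without these 3 libraries, a choice made after seeing the data, the 7 calls of SF against NC remained, and limma called 0 members in either of the other comparisons, where 3 members in each passed on the unadjusted p with the fold limit.

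The annotation of GRCm38 places Fos on chromosome 12 (85473890 to 85477273, plus strand), Fosl2 on chromosome 5 (32135801 to 32157842, plus strand), Mitf on chromosome 6 (97807052 to 98021349, plus strand) and Prdm1 on chromosome 10 (44437177 to 44528501, minus strand). Spi1 lies on chromosome 2 (91082390 to 91115756, plus strand), Irf8 on chromosome 8 (120736358 to 120756694, plus strand) and Bcl6 on chromosome 16 (23965052 to 23988852, minus strand). Nfatc1 (80606205 to 80713071) and Ppargc1b (61298136 to 61400431) are both on chromosome 18, minus strand. The last 500 bases of the members other than Irf8 overlap no other annotated gene.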

How the data were processed

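Total RNA of RAW 264.7 cells was made into QuantSeq 3′ libraries and sequenced as 75 bp single-end reads by the authors, whose text says that values were quantile normalized between samples. The submitters' processing notes name Bowtie2, bedtools and mm10, with no role given. The authors deposited 1 log2 value for each of 23282 gene rows in each library. Sorted, the columns of 2 libraries can be as far as 1.60 apart in log2, so the scaling that the values carry is not known. Raising 2 to the value and subtracting 1 gave the adjusted reads.

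Groups and replicate numbers came from the sample titles. Each pair of groups was compared with limma 3.58.1 (lmFit and eBayes, R 4.3.3) on the log2 values of its 6 libraries, keeping genes that reached 10 adjusted reads in 3 or more of them. p-values were adjusted by Benjamini-Hochberg over all genes tested, and the script was tested on simulated data. Calls required an adjusted p under 0.05 with a difference of 2-fold or more. Alternatives covered the scaling (3), the filter, the constant before the log, the libraries in the fit, a replicate block, moderation, the call rule and leaving out each library. The members and gene lists were chosen with earlier results of these data known. From each list up to 4 genes with the largest absolute log2 fold change of SF against NC are named, along with a few others named after their values were seen, and 1 gene that this rule takes is not reported here. Of symbols, 35 have more than 1 row, none of them a member.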

Additional observations from a re-analysis of the deposited data

How the results depend on the processing

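For SF against NC the 7 called members kept their direction and call under each of the 17 alternatives, and Fos and Spi1 kept their direction. The number of all genes called there was 1902, or 3163 on the adjusted p alone. For MJ against NC, 461 genes were called, 267 with no filter on low values, 799 on the unadjusted p with the fold limit, 98 without the 3 libraries with the fewest zeros and between 81 and 347 with 1 library left out. The 2 members called there became 0 without those 3 libraries and between 0 and 3 with 1 library left out. With the replicate block 289 genes and 1 member were called for MJ against NC, and Fosl2 was the call lost (adjusted p = 0.055 from limma). Same-numbered libraries deviated together only weakly (r between 0.018 and 0.106), so the numbers were not taken to pair them, though each library deviated most like its own number, a hint from the data and not from the design. For SF against MJ the 6 members became 3 with no filter, 0 without the 3 libraries and between 1 and 5 with 1 library left out, and the 1098 genes became 23 without the 3 libraries, 1949 on the adjusted p alone, and between 362 and 1176 with 1 library left out. Differences near 0 changed sign. Prdm1 for MJ against NC was 0.027 with equal totals and lay between -0.122 and 0.125 with 1 library left out. Bcl6 for MJ against NC was -0.026 after quantile normalization, -0.008 scaled to the reference genes and between -0.054 and 0.174 with 1 library left out. Spi1 for SF against MJ lay between -0.113 and 0.018 with 1 library left out and between -0.126 and 0.018 over all alternatives. A fit without 1 library has fewer samples, and the cause of the other changes was not tested.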
